A study of Mus musculus with 5 samples.

Results

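The CD28 family of T cell receptors and the B7 family of their ligands were followed in colonic CD4 T cells of mice with a CD4-driven deletion of calcineurin B and of control mice. The genes described are 3 receptors, Cd28, Ctla4 and Icos, and 4 ligands, Cd80, Cd86, Cd274 (PD-L1) and Pdcd1lg2 (PD-L2). They were chosen by symbol, and all 7 were found among the 19937 genes that had a probe set annotated with their symbol alone. All 7 also lay above the median of all genes in mean level over the 5 arrays, 3 of which are conditional. In mean control level, Pdcd1lg2 lay below that of all genes, at the 37.6 percentile. Cd80 lay there at the 51.5 percentile and the others at 66.5 or above. RNA was measured on 5 Affymetrix arrays, and every value is a log2 RMA signal, on which a difference of 1 is a doubling. The cells were mouse colon T cells sorted as CD45+CD3+CD4+CD44low out of the lamina propria, which is the connective tissue under the gut epithelium. CD44 is a surface protein that rises on T cells after activation.

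The conditional group (CD4cre/Cnb1flox, 3 arrays) carried a floxed Cnb1 gene and a Cre recombinase driven by CD4. Cnb1, gene symbol Ppp3r1, encodes the regulatory subunit of calcineurin. The control group (2 arrays) is labelled both WT and CD4neg/Cnb1flox, and by the second label it carried the floxed gene too, without Cre. A CD4-driven Cre is active from the thymus on, in precursors of both CD4 and CD8 cells, and a deletion there passes to the cells derived from them. How complete the deletion was in these cells is not known here. The series text speaks of 3 experiments with 3 to 5 mice in each group, and the sources used here give no age or strain and do not say whether an array pooled mice. Spread between arrays may therefore be technical, and the p-values refer to that spread only. The study asked whether calcineurin B holds back Th1 genes and JAK/STAT signalling in these cells.

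CD28 is the main costimulatory receptor of T cells, and together with the T cell receptor it sustains interleukin-2 production and survival. CTLA-4 binds the same ligands, CD80 and CD86, more tightly and removes them from the cells that carry them, and it is kept at high levels by regulatory T cells. ICOS is induced after activation and binds its own ligand, ICOSL. CD80 and CD86 are best known from dendritic cells, macrophages and B cells, but activated T cells can make CD80 as well. PD-L1 and PD-L2 bind the inhibitory receptor PD-1, and PD-L1 can also bind CD80 on the same membrane. Calcineurin dephosphorylates NFAT factors after calcium enters the cell, and NFAT acts at many genes of T cell activation.

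Cd80 was higher in conditional arrays, 5.76-fold (95% confidence interval 4.04 to 8.21), and was the 1 member of the 7 past an adjusted p of 0.05 (limma). Over all genes, 0.416% passed in either direction, 0.371% as higher and 0.0451% as lower. Pdcd1lg2 had the next largest difference, 3.80-fold (2.42 to 5.97), and did not pass. The differences of the other 5 members lay between 0.97 and 1.53 on the log2 scale and did not pass either. In 6 of the 7 the conditional values all lay above both controls, as they did in 17.4% of all genes (in 13.1% they all lay below), and 5 of the 7 had an unadjusted limma p under 0.05 as higher, against 8.59% of all genes. The exception to the first count was Cd28. The median difference over the 7 members was 1.16, beside 0.03 over all genes.

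**Figure D1:**
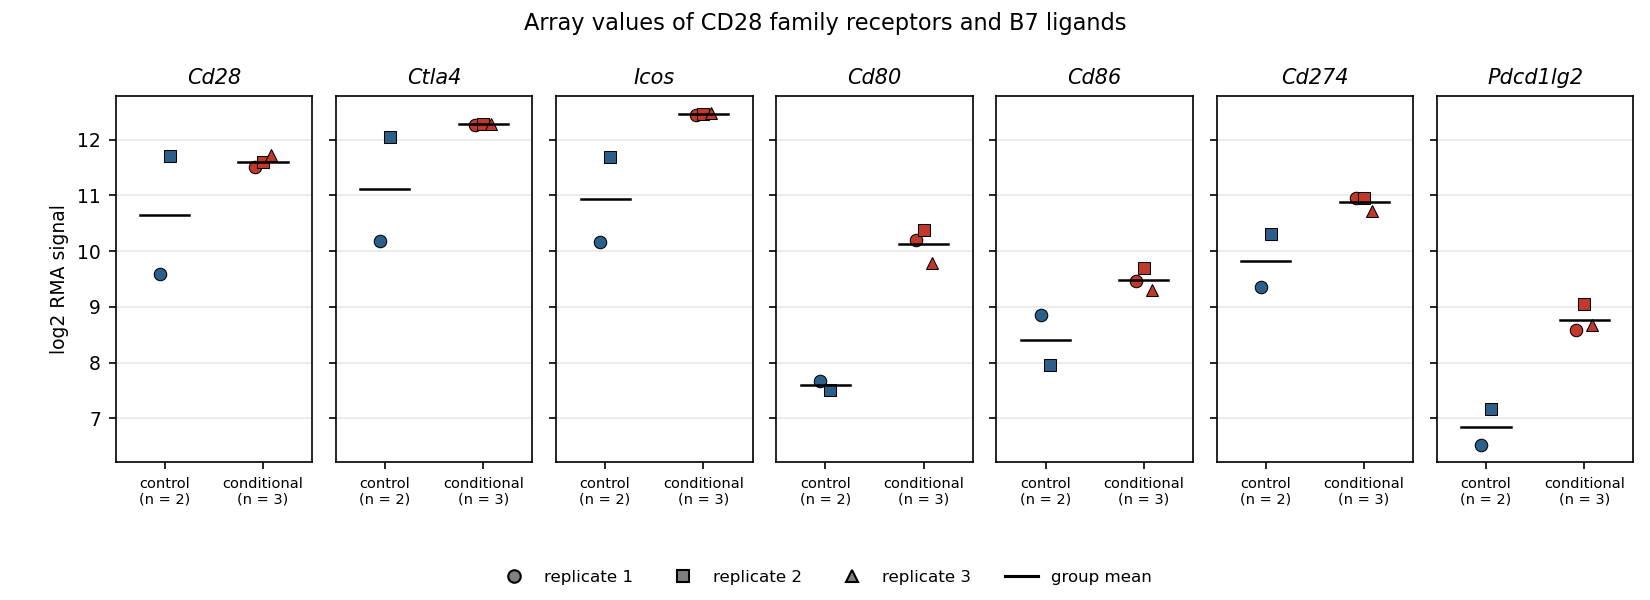
Log2 RMA signal of the 7 genes on each array, with controls in blue on the left (n = 2) and conditional arrays in red on the right (n = 3), symbols for the replicate number and a bar at each group mean. Cd80 has both controls close together at 7.67 and 7.52 and all conditional arrays at 9.79 or above, while the receptors have 1 low and 1 high control. Levels are not comparable between genes.

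The arrays as a whole set the limits of these comparisons. The median signal of an array ranged from 7.12 to 7.23. Control replicate 1 stood apart from the other arrays: the mean of 13 T cell marker genes was 8.45 there, against 11.20 in control replicate 2 and 10.78 to 11.06 in conditional arrays. All 13 were at or above the 79.8 percentile of all genes in mean level over the 5 arrays, which does not speak for each array alone. In control replicate 1, Cd3d and Skap1 of this list read 6.94 and 7.07, below the median signal of every array. Epithelial and stromal markers went the other way, with means of 9.41 and 10.41 in control replicate 1, 8.15 and 9.02 in control replicate 2, and 7.29 to 7.68 and 8.35 to 9.28 in conditional arrays. The epithelial genes Krt20 and Cdhr5 passed as lower, at -1.67 and -1.41 (limma, adjusted p = 0.0327 and 0.0366). In these bulk samples, fewer cells of a type and less RNA per cell cannot be told apart. The targeted gene Ppp3r1 was at 8.64, 8.83 and 8.77 in conditional and 8.99 and 8.60 in control arrays, a difference of -0.05 ± 0.16 (SE, limma, adjusted p = 0.927). The position of the flox sites was not known here, and a probe set outside the deleted part would check nothing.

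The promoters of 4 of the 7 members matched the RefSeq table (build GRCm38.p6), those of Ctla4, Cd80, Cd274 and Pdcd1lg2, and Cd28, Icos and Cd86 did not. They are shown because NFAT, the transcription factor under calcineurin, binds the core GGAAA. Each stretch holds 300 bases, from 250 before to 50 after the annotated start, 5′ to 3′ on the gene's strand, and all of these genes lie on the + strand. Capitals mark matches, on either strand, to the NFAT core GGAAA (reverse TTTCC) or to the AP-1 motif TGANTCA. The windows are chr1:60908775-60909074 for Ctla4, chr16:38458683-38458982 for Cd80, chr19:29367188-29367487 for Cd274 and chr19:29410669-29410968 for Pdcd1lg2.
Ctla4: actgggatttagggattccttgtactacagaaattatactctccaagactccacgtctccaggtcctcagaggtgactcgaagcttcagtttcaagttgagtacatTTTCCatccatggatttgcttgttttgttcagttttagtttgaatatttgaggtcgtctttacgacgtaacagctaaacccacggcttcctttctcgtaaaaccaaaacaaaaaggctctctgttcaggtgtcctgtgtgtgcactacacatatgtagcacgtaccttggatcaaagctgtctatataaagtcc
Cd80: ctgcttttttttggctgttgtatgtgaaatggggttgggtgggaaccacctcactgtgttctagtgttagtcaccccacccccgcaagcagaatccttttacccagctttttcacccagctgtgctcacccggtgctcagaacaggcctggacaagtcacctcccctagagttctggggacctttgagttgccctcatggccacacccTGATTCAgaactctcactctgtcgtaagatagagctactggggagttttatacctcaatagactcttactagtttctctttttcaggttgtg
Cd274: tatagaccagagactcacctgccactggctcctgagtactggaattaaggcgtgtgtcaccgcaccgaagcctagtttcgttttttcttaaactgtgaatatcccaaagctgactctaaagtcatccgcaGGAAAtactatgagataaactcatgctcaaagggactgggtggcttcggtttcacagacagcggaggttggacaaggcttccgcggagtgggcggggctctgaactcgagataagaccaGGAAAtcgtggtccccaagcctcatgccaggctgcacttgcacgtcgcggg
Pdcd1lg2: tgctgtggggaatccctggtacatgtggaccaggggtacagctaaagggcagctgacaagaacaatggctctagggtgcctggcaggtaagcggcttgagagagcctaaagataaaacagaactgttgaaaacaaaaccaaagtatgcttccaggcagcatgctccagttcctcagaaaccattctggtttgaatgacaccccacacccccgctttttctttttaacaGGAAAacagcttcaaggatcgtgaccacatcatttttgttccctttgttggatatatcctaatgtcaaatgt

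The NFAT core was found once in the Ctla4 window, at bases 107 to 111 on the reverse strand, and once in the Pdcd1lg2 window, at bases 229 to 233. The Cd274 window held 2 matches, at bases 131 to 135 and 250 to 254, and the Cd80 window held 0. The same 5 letters occur in 61.3% of the 32851 promoter windows of this length in the table. AP-1, the FOS and JUN factors that often act beside NFAT, had 1 match among the 4 windows, in Cd80 at bases 209 to 215, and its motif is in 7.81% of all windows. The STAT motif TTCNNNGAA, which reads the same on both strands, had 0 matches in the 4 windows and was found in 8.3% of all windows. None of these motifs overlapped another in the 4 windows. A match is a description of these letters, and a window without one says nothing about binding elsewhere in the gene.

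Among the receptors, Cd28 read 11.50, 11.60 and 11.72 in conditional replicates 1, 2 and 3, and 9.58 and 11.70 in control replicates 1 and 2. Control replicate 2 lay within the conditional range and control replicate 1 lay far below it. Conditional exceeded control by 0.97 ± 0.62 (SE, limma, adjusted p = 0.546; 95% confidence interval -0.61 to 2.54). It was 2.03 with control replicate 1 as the lone control and -0.094 with control replicate 2 in its place, so its direction turned with the control array.

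Ctla4, whose product competes with CD28 for CD80 and CD86, read 12.26, 12.29 and 12.28 in conditional arrays and 10.19 and 12.04 in control arrays. The conditional values lay within 0.03 of each other, and control replicate 2 lay just below them. The difference was 1.16 ± 0.54 (SE, limma, adjusted p = 0.416), and ranged from 2.09 to 0.23 between the controls taken singly.

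Icos, the receptor induced after activation, read 12.44, 12.46 and 12.49 in conditional arrays and 10.17 and 11.69 in control arrays. Both controls lay below every conditional array, with replicate 1 again the lower. The difference was 1.53 ± 0.45 (SE, limma, adjusted p = 0.231), or 2.89-fold with an interval from 1.31 to 6.39. Each control alone gave 2.30 and 0.77, the largest of the receptors against each control. In fits with 1 control array, where that array is assumed to vary like the conditional ones, Icos passed against either (limma, adjusted p = 0.001 and 0.0238), in comparisons that called 27.5% and 6.1% of all genes.

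The distance between the controls was unusual for all 3 receptors. Control replicate 2 exceeded replicate 1 by 2.12 for Cd28, 1.85 for Ctla4 and 1.53 for Icos. The absolute distance had a median of 0.28 over all genes and was smaller than these in 96.9%, 95.4% and 92.9% of genes. The T cell marker list differed in the same direction between the controls, by 2.75 in its mean, with all 13 measured genes above 0 in the main comparison, 0 past the test and a median difference of 1.07. Set against control replicate 1 that median was 2.36, and against replicate 2 it was -0.30. Cd2, an adhesion receptor of T cells, and Ubash3a, a phosphatase-like regulator of T cell receptor signals, had the smallest p in the list, at 1.31 and 1.51 (limma, adjusted p = 0.392 and 0.405). The part of T cell content in the receptor differences was not tested.

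Regulatory T cells carry much CTLA-4 and ICOS, and their markers were read on the same arrays. The list mean was 10.23 to 10.37 in conditional arrays, 8.69 in control replicate 1 and 10.01 in control replicate 2. Of its 13 genes, 9 had all conditional values above both controls and 0 had them below, beside 17.4% and 13.1% of all genes. The test over all genes called 0 of the 13, and the median difference was 1.47 (2.18 and 0.70 against each control). Ikzf4, a zinc finger partner of FOXP3, differed by 1.12 and Lrrc32, which anchors latent TGF-beta on these cells, by 0.88 (limma, adjusted p = 0.131 and 0.143). Il10, Gpr83 and Nrp1, the 3 genes of the list below 0 (named after their values were seen), were at -1.49, -0.59 and -0.57. Whether the share of regulatory T cells had a part in the Ctla4 and Icos values was not tested.

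**Figure D2:**
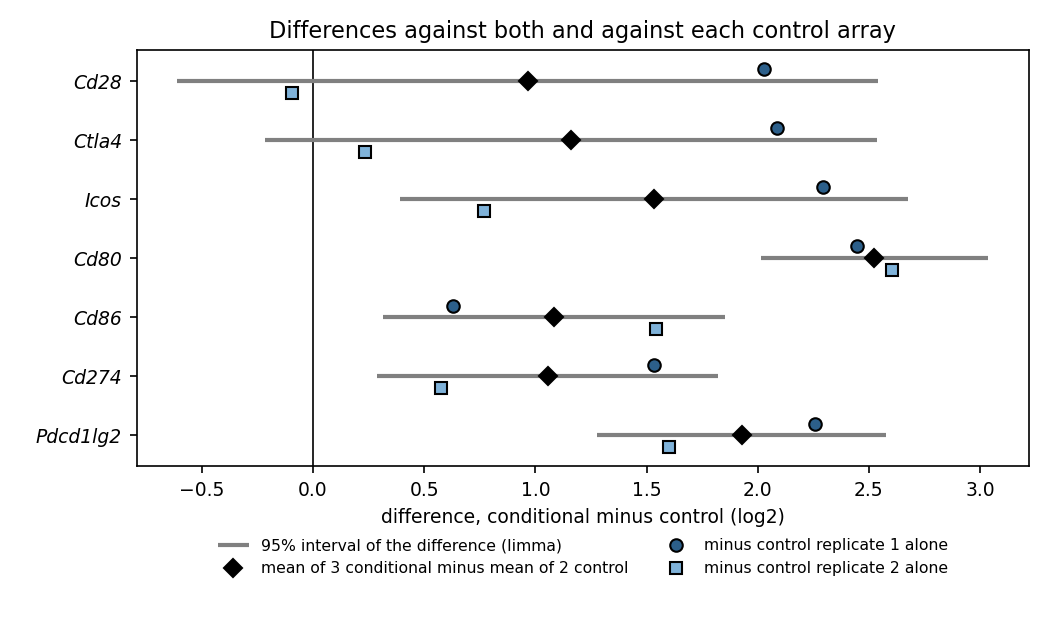
Difference of each gene between conditional and control arrays on the log2 scale, with the 95% confidence interval of the limma fit as a grey line, and the same difference against each control array alone as blue symbols. The values for Cd80 lie together, at 2.45 and 2.60, while those for Cd28 lie at 2.03 and -0.094.

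Cd80, the first of the ligands of CD28 and CTLA-4, read 10.19, 10.38 and 9.79 in conditional arrays and 7.67 and 7.52 in control arrays. The lowest conditional array stood more than 2 log2 units above the higher control. The mean was 10.12 ± 0.30 (SD, n = 3) against 7.60 ± 0.11 (SD, n = 2), a difference of 2.53 ± 0.20 (SE, limma, adjusted p = 0.03). The distance between the controls was -0.16, with a smaller one in 29.7% of genes, and the difference to each control alone was 2.45 and 2.60. In mean control level the gene lay at the 51.5 percentile of all genes.

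Cd80 was the 1 member with a second probe set. It read 8.89, 9.16 and 8.64 in conditional arrays and 6.75 and 7.06 in control arrays, again with the groups apart. Its difference was 1.995 ± 0.20, and in a limma fit over all 21640 probe sets with 1 symbol both Cd80 probe sets passed (adjusted p = 0.0326 and 0.0438). The call at the gene level was lost when any 1 conditional array was left out (limma, adjusted p between 0.12 and 0.267, with 0 genes called in those fits) and with array weights (adjusted p = 0.137). The difference stayed between 2.40 and 2.69 in those fits without a conditional array and was 2.36 with array weights.

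Cd86, the second ligand of CD28 and CTLA-4, read 9.47, 9.70 and 9.30 in conditional arrays and 8.86 and 7.95 in control arrays. The groups did not overlap, and control replicate 1 was the higher control, in contrast to the receptors. The difference was 1.08 ± 0.30 (SE, limma, adjusted p = 0.214), 0.63 to the higher and 1.54 to the lower control.

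Cd274, which encodes PD-L1, read 10.96, 10.96 and 10.72 in conditional arrays and 9.35 and 10.30 in control arrays. All conditional values lay above both controls, with control replicate 1 the lower. The difference was 1.05 ± 0.30 (SE, limma, adjusted p = 0.222), or 2.08-fold with an interval from 1.22 to 3.53, and it was 1.53 and 0.58 against control replicates 1 and 2.

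Pdcd1lg2, which encodes PD-L2, read 8.59, 9.05 and 8.67 in conditional arrays and 6.52 and 7.17 in control arrays. Every conditional array stood more than 1 unit above both controls. The difference was 1.93 ± 0.25 (SE, limma, adjusted p = 0.0672), 2.26 to control replicate 1 and 1.60 to control replicate 2. In mean control level it lay at the 37.6 percentile of all genes and had no background call, which makes the fold approximate. The differences to each control alone are given without a test here, since 1 array has no spread of its own.

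Antigen-presenting myeloid cells are usual carriers of these ligands, and their markers were read beside them. The mean of that list was 8.34 to 8.56 in conditional arrays and 7.92 and 7.90 in control arrays. Of its 25 genes, 15 had all conditional values above both controls and 0 had them below, beside 17.4% and 13.1% of all genes, and 10 were not apart. The test over all genes called 0 of the 25, and the median difference was 0.42, with 0.46 and 0.40 against each control. Itgax, the CD11c integrin chain of dendritic cells, differed by 1.17 and Xcr1, a chemokine receptor of cross-presenting dendritic cells, by 0.48 (limma, adjusted p = 0.0672 and 0.164). Cd14, Lyz2 and C1qb, named after their values were seen, had the largest differences of the list, all with groups apart. They were at 2.41, 2.08 and 1.75 (limma, adjusted p = 0.171, 0.209 and 0.414). Conditional replicate 3 was the highest array for each, at 10.17, 10.59 and 9.93. Conditional replicates 1 and 2 read 8.91 and 9.07, 8.92 and 9.06, and 7.53 and 7.68. Replicate 3 was the lowest conditional array for Cd80, Cd86 and Cd274, at 9.79, 9.30 and 10.72. For Pdcd1lg2 it read 8.67, above the 8.59 of replicate 1. Mertk, Cd83 and Ciita, the 3 genes of the list below 0 (named after their values were seen), were at -1.27, -0.41 and -0.39. Their direction turned with the control array: Mertk was at 0.17 against control replicate 2, and Cd83 and Ciita at 0.23 and 0.06 against control replicate 1. Adgre1 and Clec9a were the 2 genes of the list below the 25 percentile in mean level, and 0 lay below the 10 percentile.

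Granulocyte and mast cell genes had list means of 6.28 to 6.41 in conditional and 5.71 and 5.75 in control arrays. Of these 13 genes, 8 were apart as higher, beside 17.4% of all genes, and 5 were not apart. The test called 0 of the 13, and the median difference was 0.24. S100a8, a neutrophil and monocyte protein, differed by 1.32 and Kit, the stem cell factor receptor of mast cells, by 2.17 (limma, adjusted p = 0.0545 and 0.0615). The mast cell genes Cpa3, Fcer1a, Ms4a2 and Mcpt2, named after their values were seen, were at 0.19, 0.14, -0.016 and -0.010. In mean level 5 of these 13 genes lay below the 10 percentile, Cxcr2, Mcpt1, Mcpt2, Fcer1a and Ms4a2. B cell genes, from the other usual carriers of CD80 and CD86, lay the opposite way. Their list mean was 7.53 to 7.86 in conditional and 8.11 and 8.89 in control arrays. Of 12 genes, 8 were apart as lower and 0 as higher, beside 13.1% and 17.4% of all genes. The test called 0 of the 12, and the median was -0.84 (-0.35 and -0.83 against each control). Ebf1 and Pax5, transcription factors of the B lineage, were at -1.07 and -0.62 (limma, adjusted p = 0.13 and 0.193). The part of myeloid cells and of B cells in the ligand values was not tested.

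**Figure D3:**
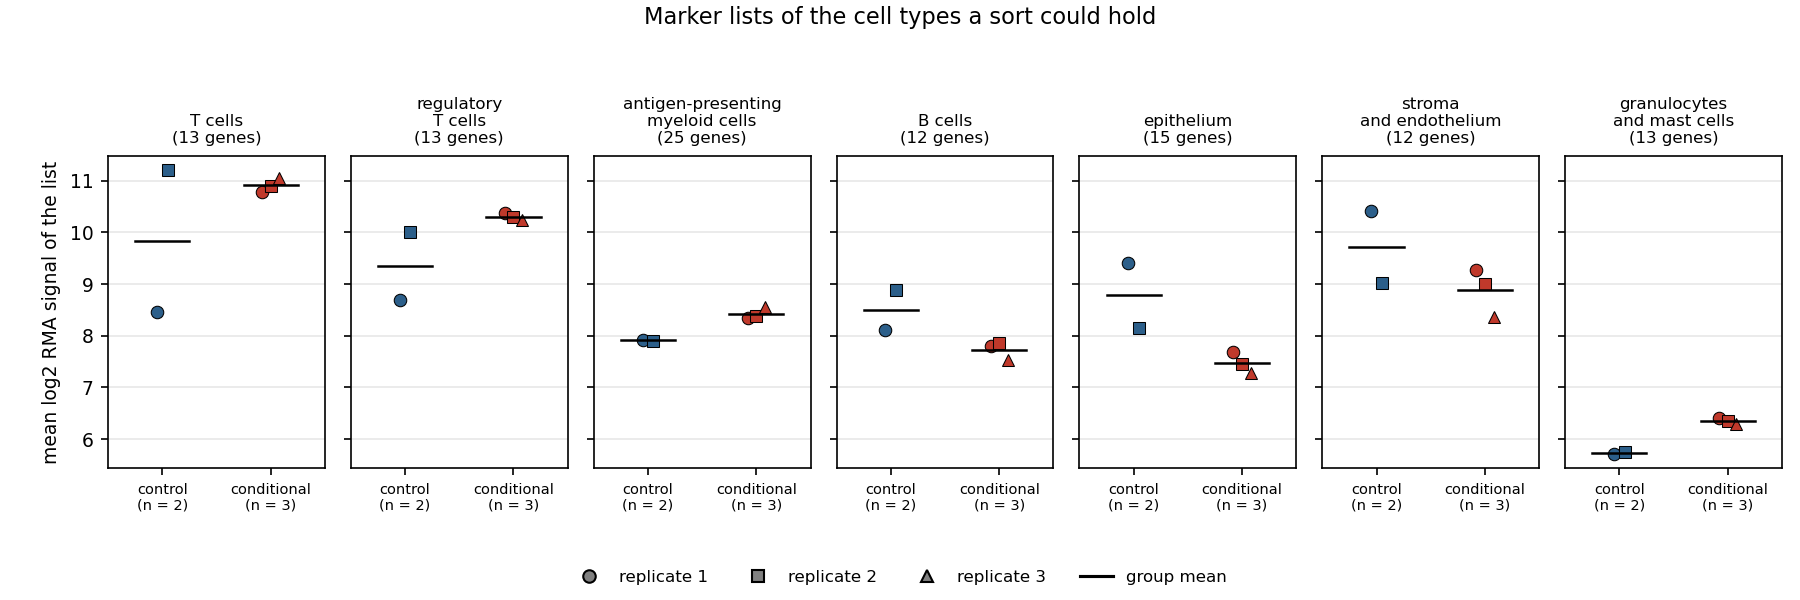
Mean log2 RMA signal of each marker list on each array, controls in blue (n = 2) and conditional arrays in red (n = 3), with symbols for the replicate number and a bar at each group mean. The T cell list has its lowest value, 8.45, in control replicate 1, while the myeloid list has both controls together at 7.92 and 7.90, below all conditional arrays.

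A difference between 2 members taken within 1 array is not moved by a factor that scales both alike, and 5 such pairs were compared. The difference has no meaning as a level, because the probes differ, and only its change between groups is given. Icos relative to Cd28 was 0.93, 0.86 and 0.77 in conditional and 0.58 and -0.01 in control arrays, a change of 0.57 with groups apart. Icos relative to Ctla4 was 0.18, 0.17 and 0.20 against -0.02 and -0.35, a change of 0.37 with groups apart. Ctla4 relative to Cd28 changed by 0.19, with control replicate 1 at 0.61 inside the conditional range of 0.56 to 0.75.

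Among the ligands, Cd80 relative to Cd86 was 0.72, 0.68 and 0.49 in conditional and -1.19 and -0.43 in control arrays, a change of 1.44. Pdcd1lg2 relative to Cd274 was -2.37, -1.91 and -2.06 against -2.83 and -3.13, a change of 0.87. Both pairs had groups apart, so Cd80 differed more than Cd86 and Pdcd1lg2 more than Cd274 on these arrays. The exact permutation test over the 10 splits of the arrays gave p = 0.2 (two-sided) for each of the 4 pairs whose groups were apart, 0.25 after adjustment over the 5 pairs, and p = 0.4 for Ctla4 relative to Cd28. The smallest p that 3 arrays against 2 can give is 0.2, so this design cannot reach the threshold.

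**Figure D4:**
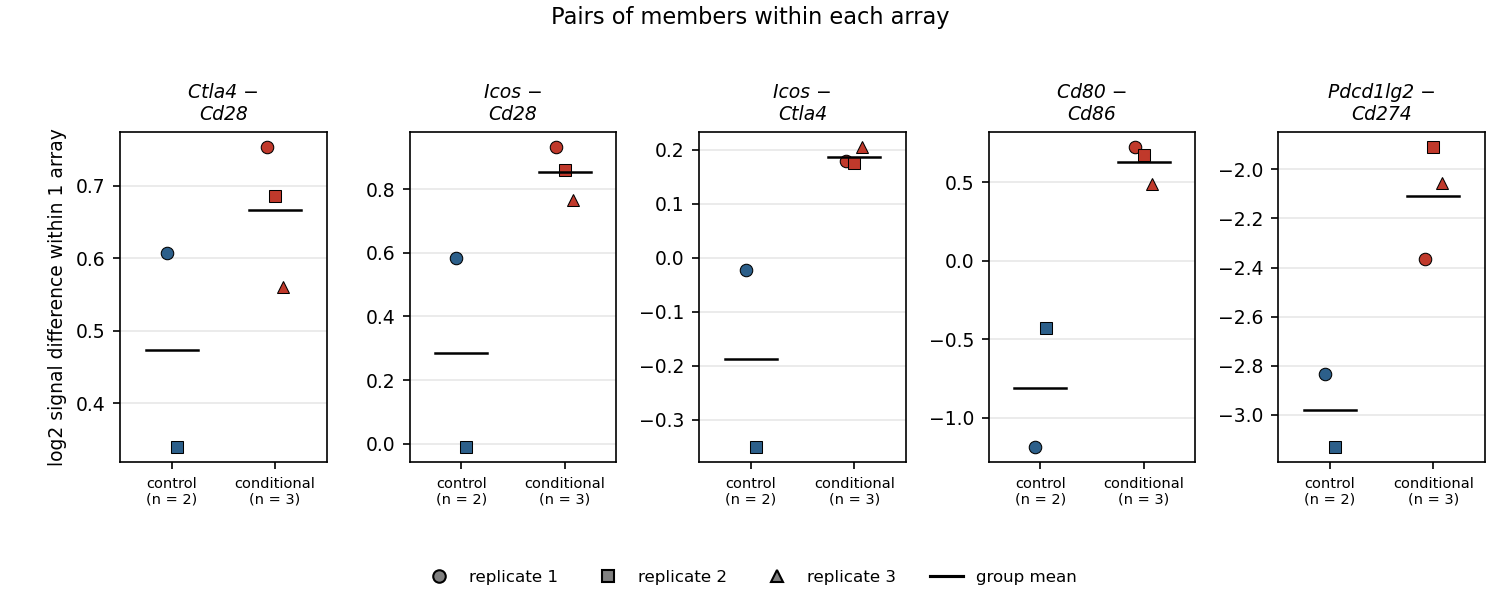
Log2 signal of 1 member minus that of another within each array, controls in blue (n = 2) and conditional arrays in red (n = 3), with a bar at each group mean and a separate vertical scale in each panel. Groups are apart in 4 of the 5 panels, and in the panel of Ctla4 minus Cd28 control replicate 1, at 0.61, lies among the conditional arrays.

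The 7 profiles were also set against each other and against all other genes. Each gene was centred on its own mean over the 5 arrays, and likeness was the root mean square distance between profiles in log2 units. The most alike members were Cd28 and Ctla4, at 0.14, then Ctla4 and Icos, at 0.21. Among the ligands the closest pair was Cd80 and Pdcd1lg2, at 0.42, and the least alike members were Cd28 and Cd80, at 1.08. The points of all these distances share the same 5 arrays, and a distance is a description only.

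Outside the family, the genes nearest to Cd28 were Septin6, Grap2 and Klk8, at distances of 0.047, 0.058 and 0.060. Grap2 encodes GADS, an adaptor that binds the CD28 tail. Nearest to Ctla4 were Hcls1, Nfatc2 and Rgs1, at 0.021, 0.043 and 0.059, of which Nfatc2 is an NFAT factor. For Icos they were Myo1g, Lpxn and Il2rb, a chain of the interleukin-2 receptor, at 0.034, 0.039 and 0.056. For Cd274 they were Pdcd1, Cenpa and Tnfrsf1b, at 0.076, 0.080 and 0.094, and Pdcd1 encodes PD-1, the receptor of PD-L1.

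The genes nearest to Cd80 were Nlrp3, an inflammasome sensor, Clec4d, a lectin receptor best known from myeloid cells, and Cxcl2, a chemokine that attracts neutrophils, at 0.17, 0.20 and 0.21. All 3 rose in conditional cells, by 2.68, 2.86 and 2.34 (limma, adjusted p = 0.0171, 0.0269 and 0.0182), values that the choice by likeness to Cd80 favours. For Pdcd1lg2 the nearest were Ccr1, a chemokine receptor of monocytes and effector T cells, Havcr2, the TIM-3 inhibitory receptor, and Osbpl3, at 0.095, 0.15 and 0.15, none of them past the threshold (limma, adjusted p = 0.0716, 0.0617 and 0.0619). For Cd86 they were Ptpn13, 1700029H14Rik and Myo1e, at 0.13, 0.15 and 0.16.

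Several members are neighbours in the genome. In the reference gene order (GRCm38.p6) Cd28, Ctla4 and Icos follow each other on chromosome 1 with 0 other protein-coding genes between them, and so do Cd274 and Pdcd1lg2 on chromosome 19. Cd80 and Cd86 both lie on chromosome 16 with other genes between them. The measured genes that flank the receptor block, Raph1 and Pard3b, differed by 0.35 and -0.92. Flanking the PD-1 ligands, Plgrkt was at -0.18 and Ric1 at 0.83, with all conditional values of Ric1 above both controls. Pla1a and Timmdc1 beside Cd80 were at -0.09 each, and Casr and Ildr1 beside Cd86 at 0.15 and -0.12. None of these 8 flanking genes passed the threshold (limma, adjusted p between 0.0671 and 0.896).

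Other receptors and ligands of the wider family did not move as one. Of 12 genes on that list 0 passed in either direction, 2 had groups apart as higher and 1 as lower, beside 17.4% and 13.1% of all genes, and the median difference was -0.015, beside 0.03 over all genes. That median turned with the control array, from 0.31 to -0.16. Pdcd1, the PD-1 receptor, read 10.28, 10.25 and 10.03 in conditional and 8.85 and 9.65 in control arrays, a difference of 0.94 ± 0.26 (SE, limma, adjusted p = 0.215). Tigit, an inhibitory receptor of T and natural killer cells, differed by 1.56 (limma, adjusted p = 0.121). Icosl, the ligand of ICOS, lay the other way, at 9.20, 9.22 and 8.67 in conditional and 10.82 and 9.55 in control arrays, a difference of -1.15 ± 0.42 (SE, limma, adjusted p = 0.313). Btla, another inhibitory receptor of the CD28 family, was at -0.14, with 0.94 and -1.22 against control replicates 1 and 2.

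Signalling genes directly under CD28 had a median difference of 0.36 over 17 measured genes, with 0 past the threshold. Of the 17, 5 were apart as higher and 0 as lower, beside 17.4% and 13.1% of all genes. Pik3cb and Pik3ca, catalytic subunits of the PI3 kinase that binds the CD28 tail, differed by 0.67 and 0.59, and Pdpk1, the kinase that activates AKT, by 0.51 (limma, adjusted p between 0.145 and 0.254). Control replicate 1 alone gave a list median of 0.78 and control replicate 2 alone -0.017. Genes of CTLA-4 traffic and its partners had a median of 0.26 over 13 genes, with 0 past the threshold. Of the 13, 6 were apart as higher, beside the same 17.4% of all genes. Arf1, a GTPase of vesicle transport, differed by 0.33, Ppp2ca, the catalytic subunit of the phosphatase PP2A, by 0.30, and Ap1m1, a clathrin adaptor subunit, by 0.26 (limma, adjusted p between 0.269 and 0.346).

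Genes that CD28 costimulation is known to induce had the largest median of the pathway lists, 0.89 over 14 genes. Of the 14, 7 were apart as higher and 1 as lower, beside 17.4% and 13.1% of all genes. Tnfrsf9, the costimulatory receptor 4-1BB, was the 1 member past the threshold. It read 12.37, 12.29 and 12.10 in conditional and 10.05 and 10.37 in control arrays, a difference of 2.04 ± 0.15 (SE, limma, adjusted p = 0.0294). The call was lost without any 1 conditional array, where 0 genes of the list passed. Il2 and Bcl2l1, classic CD28 targets chosen here after their values were seen, were at 0.33 and 0.92 (limma, adjusted p = 0.709 and 0.0672). Il2 turned with the control array, at 0.84 against control replicate 1 and -0.19 against control replicate 2. Myc, the 1 gene apart as lower, and Il4 were the 2 genes of the list below 0, also named after their values were seen. They were at -0.34 and -0.12 (limma, adjusted p = 0.316 and 0.897). The list shares Il2ra and Tnfrsf4 with the regulatory T cell markers. Control replicate 1 alone gave a list median of 1.03 and control replicate 2 alone 0.22.

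Regulators of B7 ligand levels, among them the interferon-gamma receptor chains and the kinases and factors below it, had a median of 0.15 over 12 measured genes. Of the 12, 0 passed the threshold, and 5 were apart as higher and 1 as lower, beside 17.4% and 13.1% of all genes. Ifngr1, a chain of that receptor, differed by 0.71, Stat3 by 0.57 and Jak2, a kinase of the same receptor, by 0.93 (limma, adjusted p = 0.0809, 0.116 and 0.126). Ifngr2, the other chain and the 1 gene apart as lower, named after its values were seen, was at -0.86 (limma, adjusted p = 0.166). Each control alone gave list medians of 0.34 and 0.020.

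**Figure D5:**
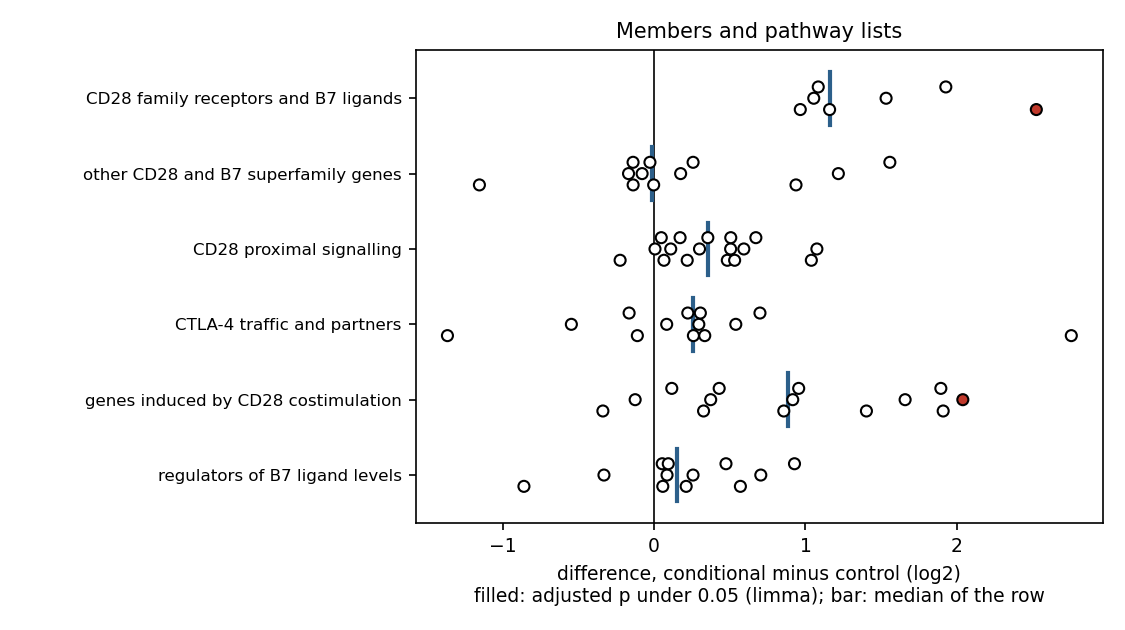
Difference between conditional and control arrays on the log2 scale for the 7 members and for each gene of the 5 pathway lists, with filled points for an adjusted p under 0.05 (limma) and a bar at the median of each row. Filled points are Cd80 among the members, at 2.53, and Tnfrsf9 among genes induced by CD28 costimulation, at 2.04.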

How the data were processed

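The deposited table holds log2 signals of 5 arrays. The submitters' processing notes name RMA and oligo, without versions. RMA makes the distributions of the arrays alike, so a change in total RNA cannot be seen, and differences of dim genes come out too small. Total RNA (100 ng, integrity number at least 9.2) was amplified and biotin-labelled, per the labels' protocols. Precision is limited by the number of arrays.

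Of 34760 probe sets, the platform's older annotation gave 21640 a single symbol and 1321 several, and 11799 are unnamed here. Each of 19937 genes was taken from its brightest single-symbol probe set. Genotype labels set the groups and titles the replicate numbers. Groups were compared with limma 3.58.1 (R 4.3.3, lmFit and eBayes, 3 residual and 2.10 prior degrees of freedom), with Benjamini-Hochberg adjustment over all genes and a threshold of 0.05, and the script was tested on simulated arrays. Lists were described by counts and medians, to be read against those given for all genes. Some genes of the lists were not analysed here. The members, lists and tests were chosen with earlier results of these data known. Genes named are the members, Ppp3r1, Pdcd1, Btla, Icosl, list genes past the threshold or otherwise the 3 (pathway) or 2 (marker) with the smallest p, flanking genes, and the 3 genes most alike to each member spanning at least 1 log2 unit; others are marked as named after their values were seen. Within-array pairs were added after the values were seen.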

Additional observations from a re-analysis of the deposited data

How the results depend on the processing

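Over 16 alternatives each, the differences of Ctla4, Icos, Cd80, Cd86, Cd274 and Pdcd1lg2 stayed above 0. Cd28 turned to -0.094 without control replicate 1 and was above 0 in the other 15. With each array left out in turn, Cd28 ranged from -0.094 to 2.03, Ctla4 from 0.23 to 2.09, Icos from 0.77 to 2.30, Cd80 from 2.40 to 2.69, Cd86 from 0.63 to 1.54, Cd274 from 0.58 to 1.53 and Pdcd1lg2 from 1.60 to 2.26. Between 0 and 6 members and between 0 and 5474 genes then passed. Without control replicate 1, 4 members and 1217 genes passed, without control replicate 2, 6 members and 5474 genes, and without any 1 conditional array 0 members and 0 genes (limma, with 1417 to 2037 genes at an unadjusted p under 0.05). Array weights, which gave both controls the lowest weight, put Cd80 at 2.36 (adjusted p = 0.137) and left 0 members and 13 genes past the threshold. With the T cell list mean of each array as a covariate, Icos at 0.94, Cd86 at 1.45 and Pdcd1lg2 at 1.67 passed beside Cd80, 4 members and 1642 genes in all, while Cd28, Ctla4 and Cd274 stood at 0.13, 0.44 and 0.69 and did not pass. That list mean was 8.45 in control replicate 1 and 10.78 to 11.20 in the other arrays, so the covariate mostly set control replicate 1 apart. Without that array, Icos, Cd86 and Pdcd1lg2 stood at 0.77, 1.54 and 1.60. An adjusted p of 0.1 as threshold gave 2 members and 374 genes, and a renewed quantile normalization 1 member and 48 genes. The cause of these changes was not tested. No label ties arrays of equal number to a shared experiment or animal. Deviations of same-numbered arrays from their group mean correlated at 0.40 for replicate 1 and -0.29 for replicate 2. The deviations of the 2 controls mirror each other by construction, so these correlations cannot show a pairing. Conditional replicate 3, which has no control of its number, correlated at 0.58 with control replicate 2. With the replicate number as a block, which sets conditional replicate 3 aside, Pdcd1lg2 stood at 1.98 (adjusted p = 0.0444) and 2 members and 69 genes passed. Filters on dim genes, other probe set choices, median centring, a variance trend and robust eBayes kept Cd80 as the 1 member called. Signal over background could not be judged, since no background call is used here.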
